A study of Mus musculus with 2 samples.

Results

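The genes described here are 10 genes of the antioxidant response governed by the transcription factor NRF2, among them the gene of NRF2 itself. They are Nqo1, Gclc, Gclm, Hmox1, Txnrd1, Srxn1, Slc7a11, Gsr, Sqstm1 and Nfe2l2, chosen by gene symbol with a difference in Nqo1 already known from these data, and all 10 were found among the 32285 features of the tables. The question was whether the difference in Nqo1 between diets was shared by the other members. The cells were live, eYFP+ and sorted from the stromovascular cells of gWAT, the white fat pad beside the gonads, of male Cyp1a1 fate reporter mice (Cyp1a1Cre x R26LSL-eYFP). In both groups FICZ, a ligand of the aryl hydrocarbon receptor (AHR), had been injected at 10 mg/kg 5 days before collection, after 12 weeks on purified food with 10% fat (LFD) or 60% fat (HFD). In these mice an eYFP+ cell is one in which, or in a precursor of which, the Cyp1a1 promoter drove Cre at that time or earlier. A sorted cell therefore need not have had active AHR when collected. Cells without Cyp1a1 expression in themselves or in a precursor were not sampled. Mice were pooled into 1 library per diet, so nothing separates diet from library, no test between diets was possible, and every difference below is between 2 libraries.

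NRF2, encoded by Nfe2l2, is held at a low level by KEAP1, which presents it to a ubiquitin ligase. When electrophiles or oxidants modify KEAP1, NRF2 builds up, pairs with small MAF proteins and binds antioxidant response elements (AREs) beside its target genes, where BACH1 can compete with it. Nqo1 is also a classical AHR target, as are Nfe2l2 and the xenobiotic enzyme genes Cyp1a1 and Cyp1b1, and Hmox1 is the textbook target of BACH1.

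Promoter sequence, from RefSeq on GRCm38.p6, was at hand for 7 of the 10 members in 9 windows, and is given as the 250 bases before the annotated start, 5′ to 3′ on the strand of the gene. The windows of Gclc, Hmox1 and Gsr were not matched. The letters TGACNNNGC, the core of the ARE, were searched on both strands, as was GCGTG, the core of the AHR element, and no match of one overlapped a match of the other in the windows of members. Of 32851 promoter windows of the same length, 10.2% held TGACNNNGC and 28.2% held GCGTG. Among members, TGACNNNGC lay in 1 window each of Gclm, Txnrd1 and Nfe2l2, and GCGTG in windows of Gclm, Txnrd1 and Srxn1. Capitals mark the TGACNNNGC match in the pieces shown, which carry these matches, and it lies on the opposite strand in Gclm and Txnrd1. The Nqo1 window is shown whole because Nqo1 is the member that differed most between diets; it held neither motif, which says only that these letters are not in this window.
Nqo1, chr8:107403206-107403455, minus strand: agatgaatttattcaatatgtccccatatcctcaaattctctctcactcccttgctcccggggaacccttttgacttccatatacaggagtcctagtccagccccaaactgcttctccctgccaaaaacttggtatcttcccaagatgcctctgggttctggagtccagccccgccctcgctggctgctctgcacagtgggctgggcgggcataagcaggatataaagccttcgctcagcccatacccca
Gclm, chr3:122245403-122245451, plus strand: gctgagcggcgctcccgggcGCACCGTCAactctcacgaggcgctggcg
Txnrd1, chr10:82859094-82859142, plus strand: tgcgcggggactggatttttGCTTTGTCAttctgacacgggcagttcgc
Nfe2l2, chr2:75704875-75704913, minus strand: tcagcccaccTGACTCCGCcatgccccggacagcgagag
The match starts 134 bases before the start of Gclm, 92 bases before that of the Txnrd1 window and 240 bases before that of Nfe2l2.

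The LFD library held 11281 barcodes and 114311020 UMIs, molecules counted once each, and the HFD library 9631 barcodes and 119498750 UMIs, and 9294 LFD and 7879 HFD cells remained after filtering and removal of likely doublets. The libraries shared 22 barcodes among filtered cells. Cells were assigned 1 by 1 from marker genes. The largest share were stromal cells with UMIs of Wt1 or Gata6, transcription factors of the mesothelium, and were taken as cycling Wt1-positive cells (694 LFD, 419 HFD), keratin-high mesothelial-like cells with at least 5 keratin UMIs per 10000 (654 and 798) and keratin-low cells (3677 and 1847). The keratin limit is a point on a range rather than a border between types: 96 LFD and 113 HFD keratin-low cells had 4 UMIs per 10000 or more, and 74 and 102 keratin-high cells had 6 or fewer. The others used for ratios were adipose progenitor cell (APC)-like (306 and 581), endothelial-like (671 and 630), macrophage-like (545 and 497), B-like (1133 and 811), plasma cell-like (400 and 1393) and T/ILC2-like cells (199 and 192). Dendritic cell-like (74 and 66) and neutrophil-like cells (157 and 48) had under 100 cells in a library and are given by level only. In the keratin-low group the median depth was 11620 UMIs in LFD and 17224 in HFD, and unsupervised clusters divided this group by library, with 34.8% of LFD cells in a cluster that held under 10% of HFD cells and 59.8% of HFD cells in a cluster that held 17.0% of LFD cells. A further 27.2% of HFD keratin-low cells fell in a cluster named keratin-high from its markers, which held under 10% of LFD keratin-low cells.

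Positions are on GRCm38, and all members are protein-coding genes. Nqo1 (ENSMUSG00000003849, chr8:107388225-107403206, minus strand) encodes a quinone reductase. Levels are given as CPM, UMIs of the gene per 1000000 UMIs of the summed cell type, with an exact 95% Poisson interval in parentheses. Because 3' chemistry tags each transcript once, gene length does not enter them. All intervals cover counting error only, not the spread between mice, sorts or libraries.

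Nqo1 was near 0 in lymphoid cells and higher in endothelial-like and Wt1-positive cells. In LFD keratin-low cells its interval overlapped that of macrophage-like cells, and neutrophil-like cells, with few UMIs, stood highest. In keratin-low cells the Nqo1 level was 16.9 (15.7 to 18.1) CPM in LFD and 47.8 (45.4 to 50.3) CPM in HFD. In cycling Wt1-positive cells it was 25.2 (22.4 to 28.2) and 68.5 (63.2 to 74.2) CPM. In keratin-high cells it was 31.03 (27.5 to 34.8) and 82.9 (78.1 to 88.0) CPM. In all 3 Wt1-positive types the HFD library was the higher, and the intervals of the diets lay far apart.

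In endothelial-like cells the Nqo1 level was 48.4 (41.8 to 55.8) CPM in LFD and 50.4 (42.3 to 59.5) CPM in HFD. In macrophage-like cells it was 12.0 (8.02 to 17.2) and 13.2 (9.50 to 17.8) CPM. In APC-like cells, stromal cells taken for high progenitor and low mesothelial markers, it was 10.1 (6.84 to 14.5) and 6.89 (4.97 to 9.32) CPM. The intervals of the diets overlapped in each of these types. The order of the types therefore differed by diet: endothelial-like cells stood above all Wt1-positive types in LFD, and in HFD they stood below keratin-high and cycling cells and level, within counting error, with keratin-low cells. Neutrophil-like cells had the highest values, 89.0 (55.1 to 136) CPM in LFD and 137 (62.8 to 261) CPM in HFD, from 21 and 9 UMIs. Their LFD interval overlapped that of endothelial-like cells, and their HFD interval that of keratin-high cells. B-like cells had 7 Nqo1 UMIs in each library, 1.34 and 1.72 CPM, plasma cell-like cells 2.04 and 2.40 CPM, and T/ILC2-like cells 5 and 2 UMIs. Dendritic cell-like cells had no Nqo1 UMI, where 3 UMIs would have made 5.27 CPM in LFD and 5.50 CPM in HFD.

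**Figure D1:**
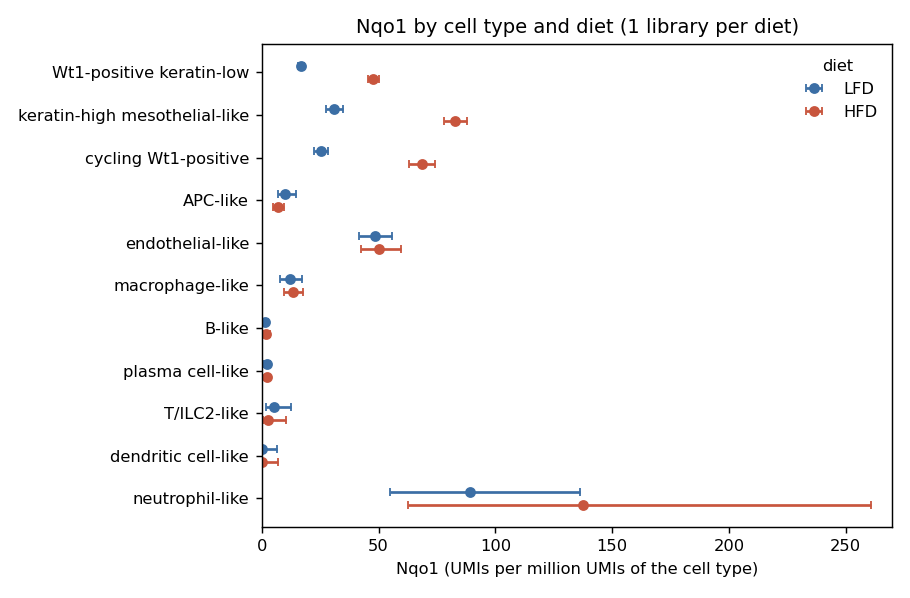
Nqo1 in UMIs per 1000000 UMIs (x axis, linear) for 11 cell types (y axis), with LFD in blue and HFD in red; bars are exact 95% Poisson intervals, which cover counting error only. The HFD point lies to the right of the LFD point with no overlap of bars in the 3 Wt1-positive types, whereas the bars overlap in every other type.

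The ratio of HFD to LFD CPM is given with an exact conditional binomial 95% interval. Nqo1 was 2.83-fold (2.60 to 3.10) higher in HFD in keratin-low cells, 2.67-fold (2.34 to 3.06) higher in keratin-high cells and 2.72-fold (2.37 to 3.14) higher in cycling cells. These values ranked 85 of 12920, 56 of 11053 and 61 of 10965 genes with at least 50 UMIs. Nqo1 was chosen with its difference known from these data, so the ranks only describe its size. The ratio was 1.04 (0.830 to 1.30) in endothelial-like, 1.10 (0.670 to 1.83) in macrophage-like and 0.680 (0.416 to 1.13) in APC-like cells. The interval in each of these 3 lies below those of the Wt1-positive types. In APC-like cells the direction turned without doublet removal, at 1.26.

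The Nqo1 difference was also seen as more cells with the transcript. With each cell thinned to 2000 UMIs, 3.42% of LFD and 9.10% of HFD keratin-low cells had an Nqo1 UMI, against 16.1% and 45.4% before thinning. In keratin-high cells the thinned shares were 7.36% and 14.3% (29.2% and 62.2% unthinned). In cycling cells they were 3.62% and 10.8% (29.4% and 59.2% unthinned). B-like cells, where the level was near 0, had thinned shares of 0.183% and 0.254% (0.618% and 0.863% unthinned) at median depths of 4048 and 4222 UMIs. The Wt1-positive shares stood above this background. Thinning left 3658 LFD and 1825 HFD keratin-low cells, 652 and 790 keratin-high cells, 691 and 417 cycling cells and 1093 and 788 B-like cells. Removing the 1% of keratin-low cells with the most Nqo1 UMIs left 14.2 and 44.1 CPM.

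Depth and marker levels also differed between the keratin-low cells of the 2 diets, and the Nqo1 difference was also present within bands of depth and mitochondrial share, which were added after seeing the data. In cells of 5000 to 10000, 10000 to 20000 and 20000 to 40000 UMIs, Nqo1 differed between diets by a ratio of 2.77 (1.90 to 3.94), 2.85 (2.56 to 3.17) and 3.67 (2.65 to 5.21). In cells of 0 to 4%, 4 to 6%, 6 to 8% and 8 to 12.5% mitochondrial UMIs it was 3.64 (1.77 to 8.07), 2.90 (2.58 to 3.26), 2.59 (2.23 to 3.00) and 4.56 (2.61 to 8.18). The Wt1-positive marker list summed to 790 CPM in LFD and 1187 CPM in HFD keratin-low cells, the keratin list to 68.8 and 116 CPM and the macrophage list to 109.8 and 84.0 CPM. The endothelial list, of a type with 48.4 and 50.4 CPM of Nqo1, summed to 35.5 and 53.6 CPM in keratin-low, 83.9 and 116 CPM in keratin-high and 49.3 and 71.8 CPM in cycling cells, and the part of these lists in the Nqo1 difference was not tested. Restricted to the single cluster that held most HFD keratin-low cells (626 LFD, 1104 HFD), Nqo1 was 17.6 and 38.3 CPM, a ratio of 2.17 (1.82 to 2.60). The corresponding single-cluster ratio was 2.51 (2.08 to 3.04) in keratin-high and 2.46 (2.08 to 2.90) in cycling cells.

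The Nqo1 level climbed with keratin content in both diets, in bands that were likewise added after seeing the data. In Wt1-positive cells outside the cell cycle it went from 15.9 CPM in LFD cells with no keratin UMI to 35.2 CPM in those with at least 10 per 10000. In HFD cells it went from 35.3 to 89.6 CPM over the same bands. Within a band the diets stayed apart, with ratios of 2.22 (1.94 to 2.54) at no keratin UMI, 2.94 (2.49 to 3.50) up to 2 per 10000, 2.99 (2.47 to 3.64) at 2 to 5, 2.93 (2.36 to 3.68) at 5 to 10 and 2.54 (2.16 to 3.01) from 10. HFD cells without keratin UMIs thus had the level of LFD cells with the most. Gsr, which encodes glutathione reductase, had a like gradient, from 49.97 to 97.9 CPM in LFD and from 67.2 to 126 CPM in HFD. Nfe2l2 had no steady gradient, with 210 to 245 CPM in LFD and 305 to 317 CPM in HFD across the bands. Hmox1 was lower in LFD cells with more keratin, 35.3 CPM with none against 16.0 CPM from 10 per 10000, and in HFD it was 41.4 CPM with none, 25.3 CPM at 2 to 5 and 33.8 CPM from 10.

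**Figure D2:**
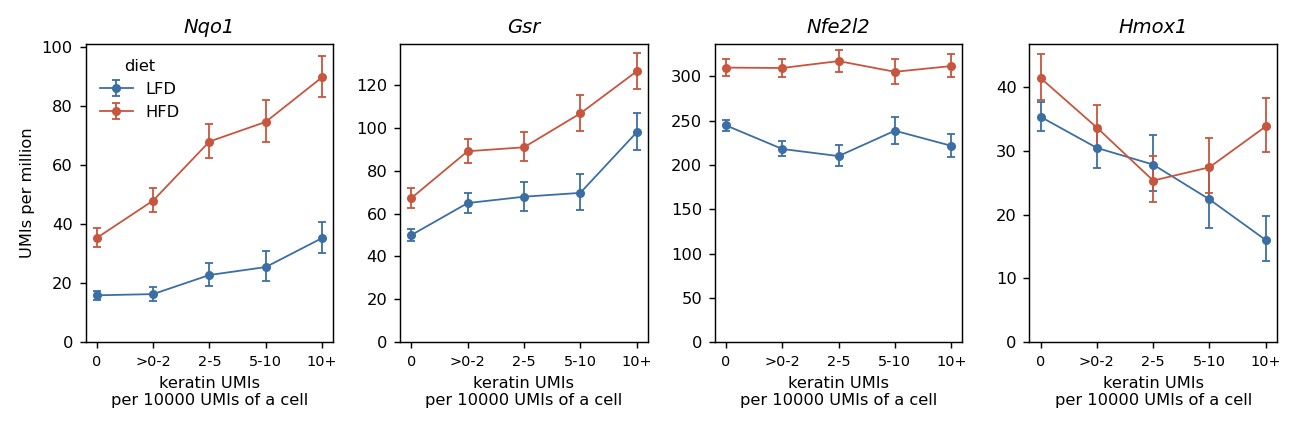
CPM of 4 members (y axes, linear from 0) in Wt1-positive cells outside the cell cycle, by keratin UMIs per 10000 UMIs of a cell (x axes, 5 bands), LFD in blue and HFD in red, with exact 95% Poisson intervals. Nqo1 and Gsr climb with keratin in both diets, Nfe2l2 has no steady gradient and lies higher in HFD in every band, and the Hmox1 intervals do not overlap at 0 and from 10 per 10000 and overlap between.

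The other members differed less between diets in the Wt1-positive types. A member was counted as higher or lower when its ratio passed 1.5-fold either way. In keratin-low cells 1 of 10 members, Nqo1, was higher, where 6.84% of all genes were, and 1, Slc7a11, was lower, where 6.83% were. In keratin-high cells Nqo1 and Hmox1 were higher among 9 members with at least 50 UMIs, against 8.61% of genes, and none was lower, against 2.85%. In cycling cells Nqo1 was higher among 9, against 7.65%, and none was lower, against 3.47%. Nqo1, whose difference was known in advance, is counted among the higher members in each type. Beside it, Hmox1 in keratin-high cells was the only other. The cycling count depended on the cells kept: in cells of 5000 to 20000 UMIs 4 were higher, with Gclm, Gsr and Nfe2l2 at 1.53, 1.57 and 1.51, and under the stricter filter, thinning, types from clusters or without the top 1% of cells it was 2, with Srxn1 or Gsr. In keratin-low cells 2 were higher in cells of 5000 to 20000 UMIs, with Gclc at 1.51, and after thinning, with Gsr at 1.53. Without Nqo1 the median ratio of the members was 1.15, 1.31 and 1.21 in the 3 types, beside a median gene at 1.07, 1.09 and 1.09. The median gene lies above 1 by 0.13 and 0.12 on the log2 scale in keratin-high and cycling cells, so ratios there are best read against it.

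The members Gsr, Srxn1 and Nfe2l2 stood above the median gene, beyond counting error, in each of the 3 types. Gsr regenerates reduced glutathione (ENSMUSG00000031584, chr8:33652523-33698163). Its level was 56.1 CPM in LFD and 80.8 CPM in HFD keratin-low cells, 85.8 and 118 CPM in keratin-high cells and 68.4 and 94.2 CPM in cycling cells, with ratios of 1.44 (1.36 to 1.52), 1.37 (1.26 to 1.495) and 1.38 (1.25 to 1.52). In each type the HFD library was the higher.

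Srxn1 encodes sulfiredoxin, which repairs over-oxidised peroxiredoxins (ENSMUSG00000032802, chr2:152105516-152111376). Its level was 37.1 and 49.1 CPM in keratin-low, 32.8 and 45.7 CPM in keratin-high and 29.5 and 44.2 CPM in cycling cells. The ratios were 1.32 (1.24 to 1.42), 1.40 (1.21 to 1.61) and 1.497 (1.29 to 1.73), the last of which was just short of the 1.5-fold limit. Nfe2l2 (ENSMUSG00000015839, chr2:75675513-75704641, minus strand) had the highest level of all members in these types, 233 and 312 CPM in keratin-low, 229 and 309 CPM in keratin-high and 221 and 319 CPM in cycling cells. Its ratios were 1.34 (1.30 to 1.37), 1.35 (1.28 to 1.42) and 1.45 (1.37 to 1.52). Between 7.78% and 17.4% of genes had higher ratios than these 3 members in the same types. For Nqo1, whose difference was known in advance, it was 0.498% to 0.650%.

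The subunits of glutamate-cysteine ligase, which makes the first step of glutathione synthesis, are given side by side. The catalytic subunit Gclc (ENSMUSG00000032350, chr9:77754535-77794485) had 23.3 CPM in LFD and 32.0 CPM in HFD keratin-low cells, a ratio of 1.37 (1.26 to 1.496), with 1.27 (1.05 to 1.55) in keratin-high and 1.12 (0.944 to 1.33) in cycling cells. The modifier subunit Gclm (ENSMUSG00000028124, chr3:122245557-122270732) had 30.3 and 33.0 CPM in keratin-low cells, a ratio of 1.09 (1.003 to 1.18), with 1.26 (1.10 to 1.43) in keratin-high and 1.29 (1.13 to 1.48) in cycling cells. The intervals of their ratios did not overlap in keratin-low cells and overlapped in the other two types. Txnrd1, thioredoxin reductase (ENSMUSG00000020250, chr10:82833951-82897712), had ratios of 1.15 (1.09 to 1.21), 0.966 (0.877 to 1.06) and 1.11 (1.02 to 1.20) in keratin-low, keratin-high and cycling cells, where its level was 72.9 and 84.0, 79.8 and 77.1, and 103 and 114 CPM. Sqstm1, the autophagy receptor p62 that binds KEAP1 (ENSMUSG00000015837, chr11:50199366-50210827, minus strand), had ratios of 0.941 (0.903 to 0.981), 1.07 (0.986 to 1.17) and 1.06 (0.958 to 1.16). Against the median gene, the Txnrd1 interval lay above it in keratin-low and below it in keratin-high cells, and that of Sqstm1 below it in keratin-low cells. The Sqstm1 direction turned within bands of depth there, from 0.828 (0.681 to 0.999) at 5000 to 10000 UMIs to 1.12 (1.06 to 1.17) and 1.17 (1.03 to 1.34) in the deeper bands.

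Hmox1, heme oxygenase 1, which breaks down heme (ENSMUSG00000005413, chr8:75093621-75100589), had 33.1 and 34.7 CPM in keratin-low cells, a ratio of 1.05 (0.968 to 1.13), and in cycling cells 24.8 and 24.4 CPM, a ratio of 0.984 (0.821 to 1.18). Within bands of depth the keratin-low ratio ran from 2.71 (2.11 to 3.45) at 5000 to 10000 UMIs, with 92 HFD cells, over 1.22 (1.10 to 1.34) at 10000 to 20000 to 0.834 (0.654 to 1.07) at 20000 to 40000. In keratin-high cells it was 18.7 CPM in LFD and 31.0 CPM in HFD, a ratio of 1.65 (1.38 to 1.99). The macrophage marker list summed to 147 CPM in LFD and 99.4 CPM in HFD keratin-high cells, and the list of red cell markers, mostly globin genes, to 1.20 and 53.9 CPM. In the 1% of cells with the most Hmox1 UMIs the macrophage list summed to 202 CPM in LFD and 148 CPM in HFD, against 146 and 98.9 CPM in the rest. The part of these cells in the Hmox1 difference was not tested. Within the single cluster with most HFD keratin-high cells (317 LFD, 536 HFD) the Hmox1 ratio was 1.36 (1.05 to 1.78).

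Slc7a11, the cystine transporter subunit xCT (ENSMUSG00000027737, chr3:49892526-50443614, minus strand), was scarce in Wt1-positive cells. It had 177 UMIs in LFD and 55 UMIs in HFD keratin-low cells, 3.96 and 1.73 CPM, a ratio of 0.439 (0.318 to 0.597). Few cells carried it: the 37 LFD cells with the most held 131 of the 177 UMIs, and the 19 such HFD cells held 50 of the 55. Without these cells the level was 1.04 CPM in LFD and 0.159 CPM in HFD, a ratio of 0.153, and thinning to 2000 UMIs gave 0.687. In these cells the macrophage list summed to 92.6 CPM in LFD and 66.0 CPM in HFD, against 110.0 and 84.2 CPM in the rest. The neutrophil list summed to 61.7 and 57.4 CPM in them, against 58.5 and 48.2 CPM in the rest, and its part in the difference was not tested. Within the single cluster with most HFD keratin-low cells the direction turned, with 10 LFD and 44 HFD UMIs and a ratio of 1.88 (0.933 to 4.195). Keratin-high and cycling cells had 6 to 8 Slc7a11 UMIs in each library, too few to compare.

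**Figure D3:**
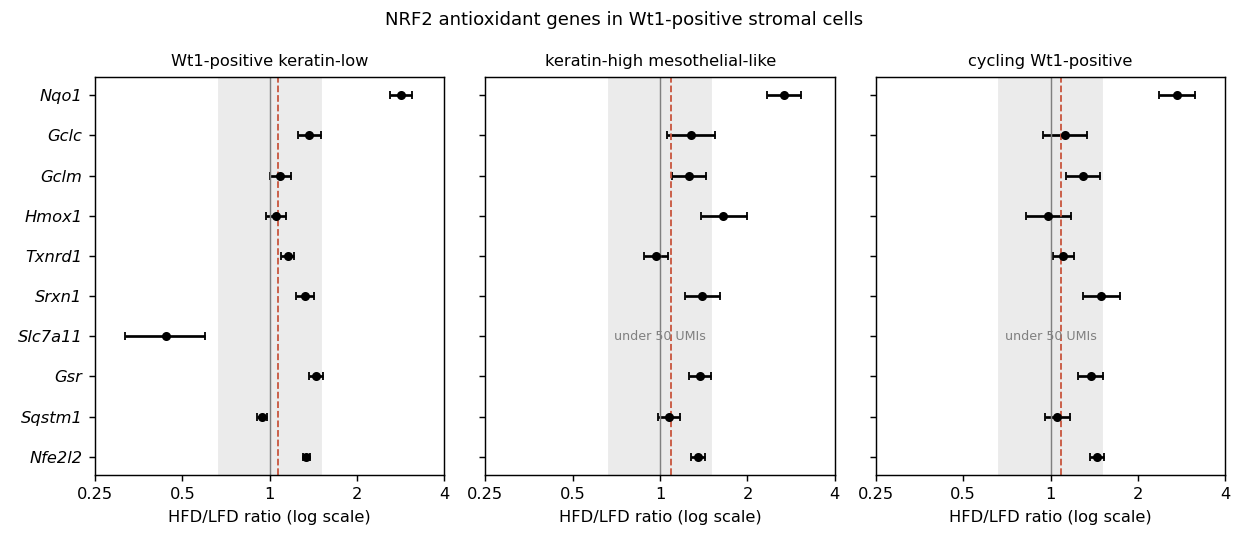
Ratio of HFD to LFD CPM (x axis, log scale) of the 10 members (y axis) in the 3 Wt1-positive cell types, with 95% intervals for counting error; the grey band spans 1.5-fold either way and the dashed red line marks the median gene. Nqo1 lies at 2.67 to 2.83 in every panel, apart from all other members, of which Gsr, Srxn1 and Nfe2l2 sit between 1.32 and 1.497.

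Other genes of these pathways were taken from lists. Their counts are to be read beside the shares of all genes past 1.5-fold higher, 6.84% in keratin-low, 8.61% in keratin-high and 7.65% in cycling cells, or lower, 6.83%, 2.85% and 3.47%, and in lists of so few genes 1 call is a large share. In glutathione synthesis and reduction, Oplah, which recycles 5-oxoproline to glutamate, was higher in all 3 Wt1-positive types, 1.95-fold (1.81 to 2.10) in keratin-low, 2.18-fold (1.90 to 2.50) in keratin-high and 2.29-fold (1.90 to 2.78) in cycling cells, as 1 of 10, 1 of 9 and 1 of 9 measured genes, and Slc7a11 was the 1 lower gene, in keratin-low cells; the medians of the list were 1.12, 1.10 and 1.14. In NADPH supply, which feeds both Nqo1 and Gsr, Me1 (malic enzyme) was higher in each type, 1.71-fold (1.59 to 1.83), 1.55-fold (1.36 to 1.77) and 1.76-fold (1.53 to 2.03). Taldo1, of the pentose phosphate pathway, was 1.70-fold (1.63 to 1.76) higher in keratin-low cells, and Pgd 1.51-fold (1.35 to 1.68) higher in cycling cells. That made 2, 1 and 2 of 6 genes past the limit, with list medians of 1.38, 1.32 and 1.37. Set against the median gene, which was added after seeing the data, 2, 0 and 1 of 6 were past it, without Me1 in keratin-high and Pgd in cycling cells. None of the 12 measured thioredoxin and peroxiredoxin genes passed it in keratin-low cells and none of 11 in cycling cells, and in keratin-high cells 1 of 12 did, Txnip, the inhibitor of thioredoxin, at 2.08-fold (1.83 to 2.38). The medians of that list were 1.11, 1.01 and 1.10.

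Of 17 detoxification genes measured in keratin-low cells, 4 were higher and none lower, beside 6.84% of genes higher, and Nqo1, whose difference was known in advance, is 1 of the 4 here and in the next types: Aldh3a1 3.46-fold (2.40 to 5.08), Nqo1, Gsta4 2.17-fold (1.76 to 2.68) and Aldh1a1 2.12-fold (2.05 to 2.19). In keratin-high cells 4 of 16 were higher, beside 8.61% of genes, namely Nqo1, Gsta4 2.26-fold (1.83 to 2.82), Gsta3 2.18-fold (1.68 to 2.87) and Gstm1 1.97-fold (1.79 to 2.18). In cycling cells 4 of 16 were higher, beside 7.65% of genes, namely Nqo1, Gsta4 2.64-fold (1.91 to 3.69), Gstm1 2.04-fold (1.76 to 2.37) and Aldh1a1 1.96-fold (1.83 to 2.09). The list medians were 0.987, 1.30 and 1.27. Gsta4 was therefore, beside Nqo1, the detoxification gene higher in all 3 types; glutathione transferases are a family of similar genes whose reads may be shared.

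Several AHR targets were higher in the same cells. Cyp1a1 itself had 7.55 CPM in LFD and 15.0 CPM in HFD keratin-low cells, 14.4 and 22.5 CPM in keratin-high cells and 7.21 and 20.5 CPM in cycling cells, with ratios of 1.99 (1.73 to 2.29), 1.56 (1.27 to 1.93) and 2.84 (2.18 to 3.72). The AHR repressor gene Ahrr had ratios of 1.29 (1.15 to 1.44), 1.65 (1.32 to 2.08) and 1.77 (1.43 to 2.19), and Tiparp 1.43 (1.39 to 1.47), 1.33 (1.26 to 1.40) and 1.58 (1.495 to 1.67). Cyp1b1 stayed at 1.26, 1.20 and 1.26. Counting Nqo1, 3 of 8 measured AHR targets were past 1.5-fold higher in keratin-low, 3 of 7 in keratin-high and 4 of 7 in cycling cells, beside 6.84%, 8.61% and 7.65% of genes, and none was lower. Nqo1, whose difference was known in advance, is 1 of the higher genes in each. In keratin-low cells the 3 were Cyp1a1, Nqo1 and Aldh3a1. Nqo1 and Aldh3a1 were also counted among the detoxification genes, so the 2 lists are not separate. The list medians were 1.38, 1.40 and 1.58. Set against the median gene the numbers were 3, 2 and 3, without Cyp1a1 in keratin-high and Tiparp in cycling cells. In APC-like cells none of 6 was higher, beside 13.4% of genes, and 2 were lower, beside 5.91%, Ahrr at 0.403 (0.257 to 0.630) and Ugt1a6a at 0.526 (0.326 to 0.852). In macrophage-like cells none of 5 was higher, beside 7.15%, and Cyp1b1 and Ahrr were lower, beside 4.24%, at 0.517 (0.374 to 0.711) and 0.564 (0.400 to 0.790). In B-like cells, where Nqo1 was near 0, 3 of 4 were higher, beside 8.35%, Cyp1b1 at 1.52 (1.22 to 1.89), Nfe2l2 at 1.51 (1.22 to 1.86) and Tiparp at 1.503 (1.32 to 1.72), and set against the median gene none of the 4 was. In T/ILC2-like cells 1 of 3 was higher, beside 15.7%, Tiparp at 2.49 (1.98 to 3.15), and Cyp1b1 was lower, beside 9.37%, at 0.597 (0.334 to 1.03). In plasma cell-like cells none of 4 was higher, beside 4.30%, and Cyp1b1 and Nfe2l2 were lower, beside 11.2%. Set against the median gene, Cyp1b1 alone was lower there. In endothelial-like cells none of 6 passed 1.5-fold either way, beside 17.4% of genes higher and 7.18% lower.

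Of 14 genes that control NRF2, none passed 1.5-fold either way in keratin-low and cycling cells, where 6.84% and 7.65% of genes were higher and 6.83% and 3.47% lower. The list medians were 1.15 and 1.12, and the highest ratios were 1.41 for Prkcd in keratin-low and 1.445 for Nfe2l2 in cycling cells. Keap1 had ratios of 1.20 (1.12 to 1.27), 1.17 (1.05 to 1.31) and 1.20 (1.07 to 1.35) in keratin-low, keratin-high and cycling cells, and Bach1 1.39 (1.34 to 1.43), 1.22 (1.14 to 1.31) and 1.24 (1.15 to 1.34). In keratin-high cells Maff and Prkcd were higher among 14, beside 8.61% of genes, with a list median of 1.18, and set against the median gene Prkcd alone was. Of the targets of ATF4, which also drives Slc7a11, 1 of 9 was lower in keratin-low cells, Slc7a11 itself, beside 6.83% of genes, and the median was 0.992. In cycling cells Asns was the 1 of 8 that was lower, beside 3.47%, with a median of 1.01, and in keratin-high cells Vldlr was the 1 of 8 that was higher, also with a median of 1.01. In heme breakdown and iron storage, 1 of 8 was lower in keratin-low cells, the iron exporter gene Slc40a1, at 134 and 16 UMIs, 1 of 7 was higher in keratin-high cells, Hmox1, and none of 7 was past the limit in cycling cells; the medians were 1.03, 1.11 and 1.06. Set against the median gene, Asns and Fth1 were lower in keratin-high and Fth1 in cycling cells as well. Genes that tissue dissociation and heat can raise moved in both directions: Hspa1b was 3.74-fold (3.32 to 4.22), 3.53-fold (2.94 to 4.25) and 3.51-fold (2.80 to 4.43) higher in the 3 types, while the ratio of Fosb was 0.591 (0.579 to 0.603) in keratin-low cells. Of the 12 genes of that list, 2 were higher and 1 lower in keratin-low cells, 1 was higher in keratin-high cells and 2 were higher in cycling cells, with medians of 0.897, 0.998 and 1.01. Set against the median gene, 1 was higher in each type, with 2 lower in keratin-low and 1 lower in cycling cells. Their part in the Nqo1 difference was not tested. Hspa1b is nearly identical to Hspa1a, so the split of reads between them is uncertain.

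In APC-like cells Hmox1 was the member that differed. It had 106 UMIs in LFD and 447 UMIs in HFD, 35.8 (29.3 to 43.3) and 73.4 (66.7 to 80.5) CPM, a ratio of 2.05 (1.65 to 2.56). The macrophage marker list summed to 67.2 CPM in LFD and 40.2 CPM in HFD APC-like cells, the B-like list to 184 and 413 CPM and the T/ILC2-like list to 57.1 and 121 CPM, and their part in the difference was not tested. It summed to 246 CPM in the 4 LFD cells with the most Hmox1 UMIs and to 43.0 CPM in the 6 such HFD cells, and without these cells Hmox1 was 30.5 CPM in LFD and 64.4 CPM in HFD. Of 9 measured members, 1 was higher, beside 13.4% of genes, and none lower, beside 5.91%. Gclm followed at 1.35 (1.06 to 1.74), while Nfe2l2, at 209 and 184 CPM, had a ratio of 0.878 (0.796 to 0.971). Gsr and Srxn1, higher in HFD Wt1-positive cells, had ratios of 0.774 (0.576 to 1.04) and 0.839 (0.657 to 1.08). Over the alternatives Gsr stayed below 1, at 0.582 to 0.917, while the Srxn1 direction turned, at 0.767 to 1.54. Clusters divided these cells by diet too, with 62.7% of LFD and 97.4% of HFD cells in 1 cluster; with types taken from clusters the Hmox1 ratio was 2.48 (1.92 to 3.25).

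In endothelial-like cells no member passed 1.5-fold among 9, beside 17.4% of genes higher and 7.18% lower. The closest was Sqstm1, with 83.2 CPM in LFD and 122 CPM in HFD, a ratio of 1.47 (1.26 to 1.71). Hmox1 had 98.8 and 75.6 CPM, a ratio of 0.765 (0.643 to 0.907), with 95 of its 392 LFD UMIs in 1 cell. Over the alternatives Sqstm1 ranged from 1.22 to 1.58 and Hmox1 from 0.423 to 0.902, so each passed 1.5-fold at its extreme. The macrophage marker list summed to 164 CPM in LFD and 421 CPM in HFD endothelial-like cells and the neutrophil list to 159 and 5.84 CPM, and their part in these values was not tested. Gclm, at 110 and 105 CPM, and Txnrd1, at 121 and 112 CPM, were within counting error between diets. The median gene had a ratio of 1.10 here. Of 14 NRF2 control genes, 5 were higher in these cells, Bach1, Maff, Mafk, Nfe2l1 and Prkcd, beside 17.4% of genes. So were 6 of 12 dissociation and heat shock genes. Set against the median gene the numbers were 5 and 4, the latter without Fos and Junb.

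Macrophage-like cells had the highest level of Hmox1 in LFD, and in HFD their level overlapped that of neutrophil-like cells. It had 2671 UMIs in LFD and 2449 UMIs in HFD, 1103 and 769 CPM, a ratio of 0.697 (0.660 to 0.737). The red cell marker list summed to 459 CPM in LFD and 0.942 CPM in HFD macrophage-like cells, and its part in this difference was not tested. Slc7a11 had 130 and 88.9 CPM, a ratio of 0.683 (0.580 to 0.805), and Gclm 196 and 163 CPM, a ratio of 0.831 (0.732 to 0.943). Each of these 3 was lower in HFD beyond counting error but did not pass 1.5-fold. The Gclm direction was not kept by every alternative, which gave 0.770 to 1.05. For Slc7a11 the direction depended on the cells kept, with a ratio of 0.989 (0.795 to 1.24) in cells of 5000 to 20000 UMIs and 1.73 (1.21 to 2.52) under a stricter cell filter.

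Gsr passed it, with 207 UMIs in LFD and 133 UMIs in HFD macrophage-like cells, 85.5 and 41.8 CPM, a ratio of 0.489 (0.390 to 0.610). The neutrophil marker list, which marks a cell type rich in Gsr and Slc7a11, summed to 151 CPM in LFD and 66.3 CPM in HFD macrophage-like cells, and its part in these differences was not tested. Sqstm1 was the 1 member with an interval above 1, at 140 and 175 CPM, a ratio of 1.24 (1.08 to 1.43). In all, 1 of 10 members was lower, beside 4.24% of genes, and none was higher, beside 7.15%. Nfe2l2 did not follow, at 302 and 316 CPM. Some alternatives put a member past 1.5-fold higher: Gclc ranged from 1.01 to 2.09, Nqo1 from 0.488 to 1.64 and Slc7a11 from 0.530 to 1.73. Most LFD cells, 95.4%, and 79.5% of HFD cells fell in the same cluster, and a further 20.1% of HFD cells in another.

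**Figure D4:**
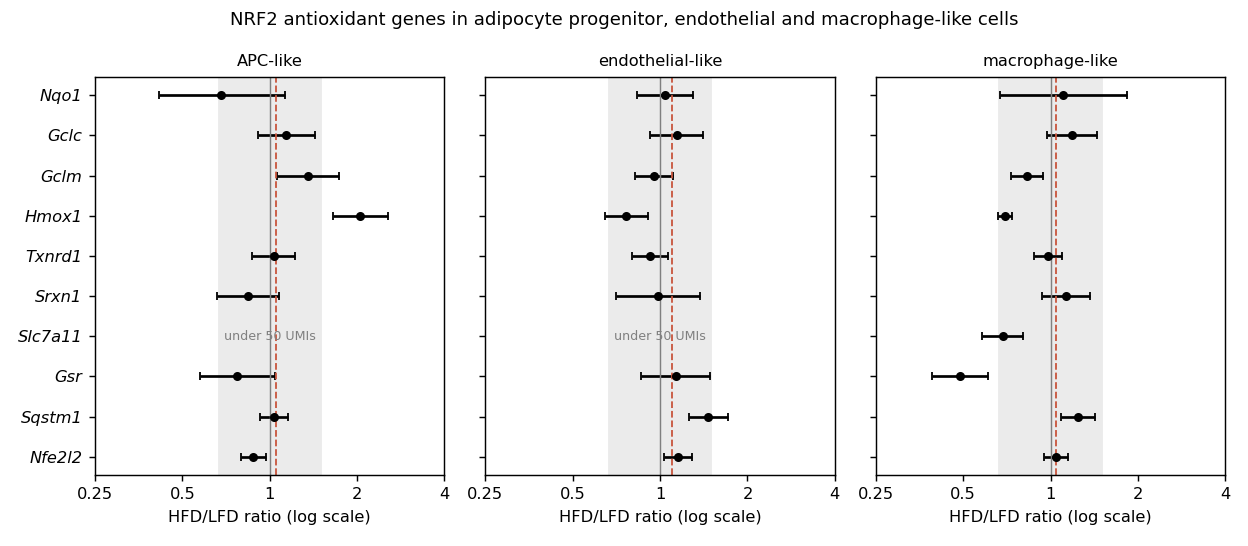
Ratio of HFD to LFD CPM (x axis, log scale) of the 10 members (y axis) in APC-like, endothelial-like and macrophage-like cells, drawn as in the plot for Wt1-positive cells. Hmox1 stands at 2.05 in APC-like cells and at 0.697 in macrophage-like cells, where Gsr lies lowest at 0.489, and the Nqo1 intervals include 1 in all 3 panels.

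B-like, plasma cell-like and T/ILC2-like cells had low levels of Nqo1, Hmox1, Srxn1 and Slc7a11, whereas T/ILC2-like cells had 57.3 and 82.8 CPM of Gclc, above keratin-low cells. In B-like cells 5 members had at least 50 UMIs, and Nfe2l2 was higher in HFD, with 171 and 201 UMIs, 32.8 and 49.4 CPM, a ratio of 1.51 (1.22 to 1.86), beside 8.35% of genes higher; none was lower, beside 5.09%. In plasma cell-like cells the direction was the opposite: Nfe2l2 had 29.2 and 19.0 CPM, a ratio of 0.651 (0.540 to 0.789), the 1 of 8 members that was lower, beside 11.2% of genes, while none was higher, beside 4.30%. The APC-like marker list, of a cell type rich in Nfe2l2, summed in these plasma cell-like cells to 1334 CPM (LFD) and 447 CPM (HFD) and the neutrophil list to 32.0 and 4.37 CPM, and their part in this difference was not tested. Of 11 dissociation and heat shock genes, 6 were lower in plasma cell-like cells, beside 11.2% of genes, and 5 against the median gene. Their part was not tested either. Neither Nfe2l2 call held when ratios were set against the median gene, where they were 1.45 and 0.712, and with types from clusters they were 1.48 and 0.911. Over all alternatives the Nfe2l2 ratio ranged from 1.28 to 2.99 in B-like and from 0.488 to 0.911 in plasma cell-like cells. Of the other 7 members measured in plasma cell-like cells, 5 lay below 1, where the median gene itself had a ratio of 0.915. In T/ILC2-like cells Sqstm1 was the 1 of 5 members that was higher, with 56 and 71 UMIs, a ratio of 1.70 (1.18 to 2.46), beside 15.7% of genes higher and 9.37% lower; under a stricter cell filter this difference vanished, at 0.989. No Slc7a11 UMI was found in T/ILC2-like cells of either library.

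Neutrophil-like cells had the highest level of 7 members in both libraries, all but Gclc, Hmox1 and Srxn1. Their interval overlapped that of the next type for Nqo1 and Txnrd1 in both libraries and for Gclm in HFD. Slc7a11 had 340 UMIs in LFD and 183 UMIs in HFD, 1441 and 2792 CPM, and 77.7% and 83.3% of the cells had a UMI of it, more than for any other member there. Gsr had 479 and 397 CPM, Hmox1 326 and 748 CPM, and Sqstm1 309 and 687 CPM. These cells were shallow, with a median of 1241 UMIs in LFD and 1018.5 in HFD, and the 48 HFD cells held 65534 UMIs in all. For Hmox1, 32.7% of the HFD UMIs came from 1 cell, so no ratio is given. Slc7a11 was the member most unequal between types, from 2792 CPM in these cells to under 5 CPM in all types but these and macrophage-like cells.

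**Figure D5:**
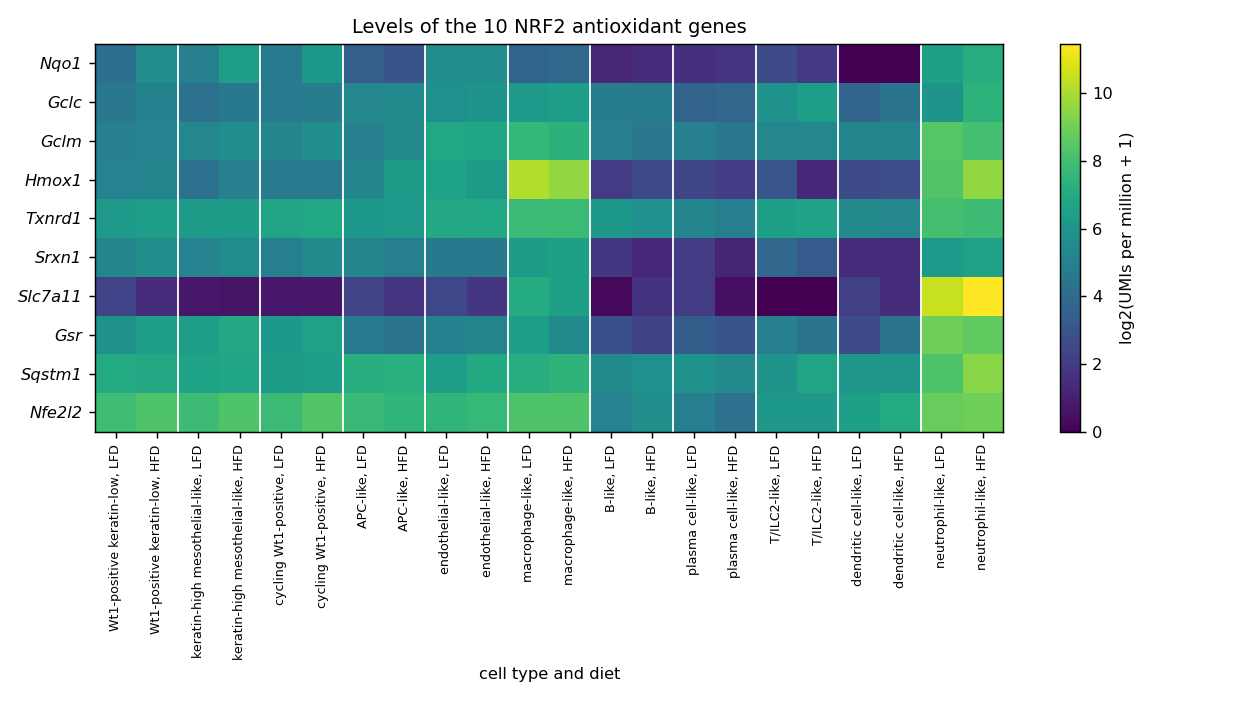
Level of each member (rows) in each cell type and diet (columns) as log2(CPM + 1), from dark (0) to yellow (highest). Slc7a11 is brightest in the neutrophil-like columns, intermediate in macrophage-like ones and dark elsewhere, Hmox1 is bright in macrophage-like and neutrophil-like columns, Nfe2l2 is present in every column, and Nqo1 is dark in lymphoid and dendritic cell-like columns.

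Across the 22 sums of 11 types and 2 diets, the member closest to Nqo1 in log2(CPM + 1) was Gsr, with a Pearson r of 0.860, then Srxn1 at 0.847 and Nfe2l2 at 0.776, and the least close was Slc7a11 at 0.419. The highest r among members, 0.898, was that of Srxn1 with Nfe2l2. Among 11449 genes with at least 500 UMIs, those most like Nqo1 were Dusp6 (0.945), Oasl2 (0.921), Tnfrsf23 (0.913), Rtp4 (0.909) and Fas (0.905), and no member was among these 5. These 22 values share 2 libraries and differ in depth, and r describes them without a test.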

How the data were processed

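Per the labels and the study's methods, the deposited UMI counts per gene and cell were made by the authors with Cell Ranger 4.0.0 on mm10, from 10x 3' libraries of pooled mice; the gene annotation release is not given in the sources used here. Barcodes with 500 to 40000 UMIs, at least 100 genes and under 12.5% mitochondrial UMIs were kept, and the top-scoring 0.8% per 1000 barcodes by Scrublet (scanpy 1.11.5) were removed as likely doublets (922 LFD, 658 HFD). Cell types were assigned cell by cell from marker genes, with limits settled after seeing the cells; 778 LFD and 588 HFD cells stayed unassigned and were left out. Counts were summed per type and diet in 11 types for levels and correlations. Ratios were made only in types with at least 100 cells in each library. Ratios (scipy 1.17.1) used genes with at least 50 UMIs over both libraries, and no p-value was computed. Named list genes were the 4 with the largest fold per list and type, and other list genes were named after their values were seen. The lists were glutathione synthesis and reduction, thioredoxin and peroxiredoxin, NADPH supply, heme breakdown and iron storage, detoxification, NRF2 control, AHR targets, ATF4 targets, and dissociation and heat shock. Members and lists were chosen with earlier results of these data known. The ratio calculation was tested on simulated data.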

Additional observations from a re-analysis of the deposited data

Results flagged for a closer look

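For 6 members the difference between diets ran in opposite directions in a pair of cell types, with intervals for counting error on either side of 1. The difference between the types was not tested, since each diet had 1 library. Each pair joins the highest and the lowest such ratio of a member over the cell types, so the gaps are the largest among them. The ratios here are not set against the median gene. The Hmox1 ratio of HFD to LFD was 2.94 times as large in APC-like cells (2.05) as in macrophage-like cells (0.697). That of Gsr was 2.95 times as large in keratin-low cells (1.44) as in macrophage-like cells (0.489). That of Nfe2l2 was 2.31 times as large in B-like cells (1.51) as in plasma cell-like cells (0.651). That of Sqstm1 was 2.35 times as large in T/ILC2-like cells (1.70) as in plasma cell-like cells (0.725). Gclm in APC-like cells (1.35) and B-like cells (0.760) differed 1.78 times, and Txnrd1 in keratin-low cells (1.15) and B-like cells (0.801) 1.44 times. The B-like ratios of these 2 crossed 1 under the stricter cell filter, at 1.16 for Gclm and 1.09 for Txnrd1, and that of Sqstm1 in T/ILC2-like cells came to 0.989.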

How the results depend on the processing

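With 1 library per diet, intervals cover counting error only, and diet and library cannot be told apart. No paired analysis was possible because each diet had 1 library and no result came from a test. Of 595 recomputed member ratios, 525 stayed on the same side of 1 and 88 moved beyond their interval. The Nqo1 ratio ranged from 2.17 to 3.11 in keratin-low, 1.99 to 2.90 in keratin-high and 2.41 to 3.58 in cycling cells. In keratin-low cells it was 2.45 with types from clusters, 3.11 without the top 1% of cells and 2.17 within 1 cluster, the last added after seeing the data. Thinning to 2000 UMIs gave 1.99 in keratin-high and 3.58 in cycling cells, and cells of 5000 to 20000 UMIs gave 3.45 in cycling cells. The number of members at least 1.5-fold higher, Nqo1 included, became 2 in keratin-low cells with 5000 to 20000 UMIs or thinned. In keratin-high cells it became 1 at a limit of 2-fold. In cycling cells it became 4 with 5000 to 20000 UMIs, and 2 under the stricter filter, thinning, types from clusters or without the top 1% of cells. Within 1 cluster, Srxn1 passed 1.5-fold in cycling cells (1.51) and Gsr in keratin-high cells (1.53), where Hmox1 no longer did (1.36). Slc7a11 turned to 1.88 in keratin-low cells. The number lower in macrophage-like cells became 3 under median-ratio scaling, thinning or types from clusters, and 2 with per-cell means or without the top 1% of cells. Under median-ratio scaling Nfe2l2 was no longer past 1.5-fold in B-like (1.45) and plasma cell-like cells (0.712), while Nqo1 in APC-like cells (0.648) was, although that ratio ranged from 0.598 to 1.26 over the alternatives. Under the stricter filter Slc7a11 in macrophage-like cells turned from 0.683 to 1.73, and Sqstm1 in T/ILC2-like cells came to 0.989. Setting list genes against the median gene was also added after seeing the data. The cause was not tested.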
